A study of Mus musculus with 6 samples.

Results

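Glucose and lactate transport was described through 10 genes of the 35127 genes summed here, in RNA-seq libraries of mouse astrocytes. The 10 genes were listed by name: 4 glucose carriers (Slc2a1, Slc2a3, Slc2a4 and Slc2a8), 3 monocarboxylate carriers (Slc16a1, Slc16a3 and Slc16a7), Bsg, and the lactate dehydrogenase genes Ldha and Ldhb. Bsg encodes a chaperone of the carriers made from Slc16a1 and Slc16a3. The 3 tumour libraries came from astrocytes isolated from brain allografts of small cell lung cancer (SCLC), and the 3 sham libraries from astrocytes of brains that had received a sham injection. The labels give no mouse strain, age, sex or genotype, no name for the grafted cells, and no account of how the astrocytes were purified or whether each library came from its own animal. The p-values thus set the difference between the groups only against the spread of these libraries within a group, and that spread may be technical.

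Astrocytes take up glucose through the facilitative carrier GLUT1, the product of Slc2a1, and break much of it down to pyruvate. Lactate dehydrogenase is a tetramer of LDHA and LDHB subunits that interconverts pyruvate and lactate; tetramers rich in LDHA are found in glycolytic tissue and those rich in LDHB in oxidative tissue. Lactate crosses the membrane with a proton through monocarboxylate carriers, and in the brain lactate released by astrocytes is thought to feed neurons. Slc2a1, Slc16a3 and Ldha are known targets of the hypoxia-inducible factor HIF-1, which binds the sequence ACGTG or GCGTG.

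In the tumour libraries 5 of the 10 genes rose and 0 fell. The 5 were Slc16a3 (41.6-fold), Slc2a1 (7.17-fold), Bsg (3.81-fold), Slc2a3 (3.76-fold) and Ldha (2.54-fold). In bulk samples a change in the cells present and one in the RNA of each cell cannot be told apart. Each of the other 5, namely Slc2a4, Slc2a8, Slc16a1, Slc16a7 and Ldhb, missed the threshold. All 10 genes passed the filter on low counts. At an unadjusted p below 0.05 still 0 fell, while Slc2a8 joined the 5 that rose, and DESeq2 and limma-voom likewise called 5 higher and 0 lower. The test was edgeR's quasi-likelihood test over 14359 genes, with Benjamini-Hochberg adjustment and a threshold of 0.05. Of all tested genes 20.9% were called, 10.5% higher and 10.4% lower, and 3% were called at least 2-fold higher, as all 5 of these genes were. All tumour values lay above all sham values for 6 of the 10 and below them for 0, against 22.2% and 21.9% of tested genes. The median log2 fold change was 0.79 over the 10 genes and -0.017 over all tested genes. The 10 genes, like the gene lists below, were chosen with earlier results of these data known, which limits such comparisons with all tested genes.

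Library totals ranged from 22133723 to 25800897 estimated reads, a ratio of 1.17. Tumour libraries 1 to 3 differed from each other by a root mean square log2 difference of 0.322 to 0.352 over the tested genes, and sham libraries 1 and 2 by 0.351. Sham library 3 stood apart, at 0.795 to 0.802 from sham 1 and 2, which is more than the 0.734 to 0.749 between tumour and sham libraries. The share of reads from mitochondrial genes was 4.05 to 4.23% in tumour libraries, 6.66% in sham 1, 6.2% in sham 2 and 4.2% in sham 3; its part in the results was not tested. Values of the 10 genes are given for each library, and with and without sham 3 where they rest on it. If the libraries that nearly coincide are added up, leaving 1 tumour and 2 sham values, edgeR and limma-voom called 0 genes, with 573 and 770 genes at an unadjusted p below 0.05. Among these were 5 members in either fit. The edgeR log2 fold changes were then 2.94 for Slc2a1, 1.90 for Slc2a3, 5.27 for Slc16a3, 1.95 for Bsg and 1.29 for Ldha. DESeq2, run on the same sums, in which the tumour group has no replicate and the spread comes from the 2 sham values alone, called 4 of the 5 higher, without Ldha, where 0.497% of genes were called higher.

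**Figure D1:**
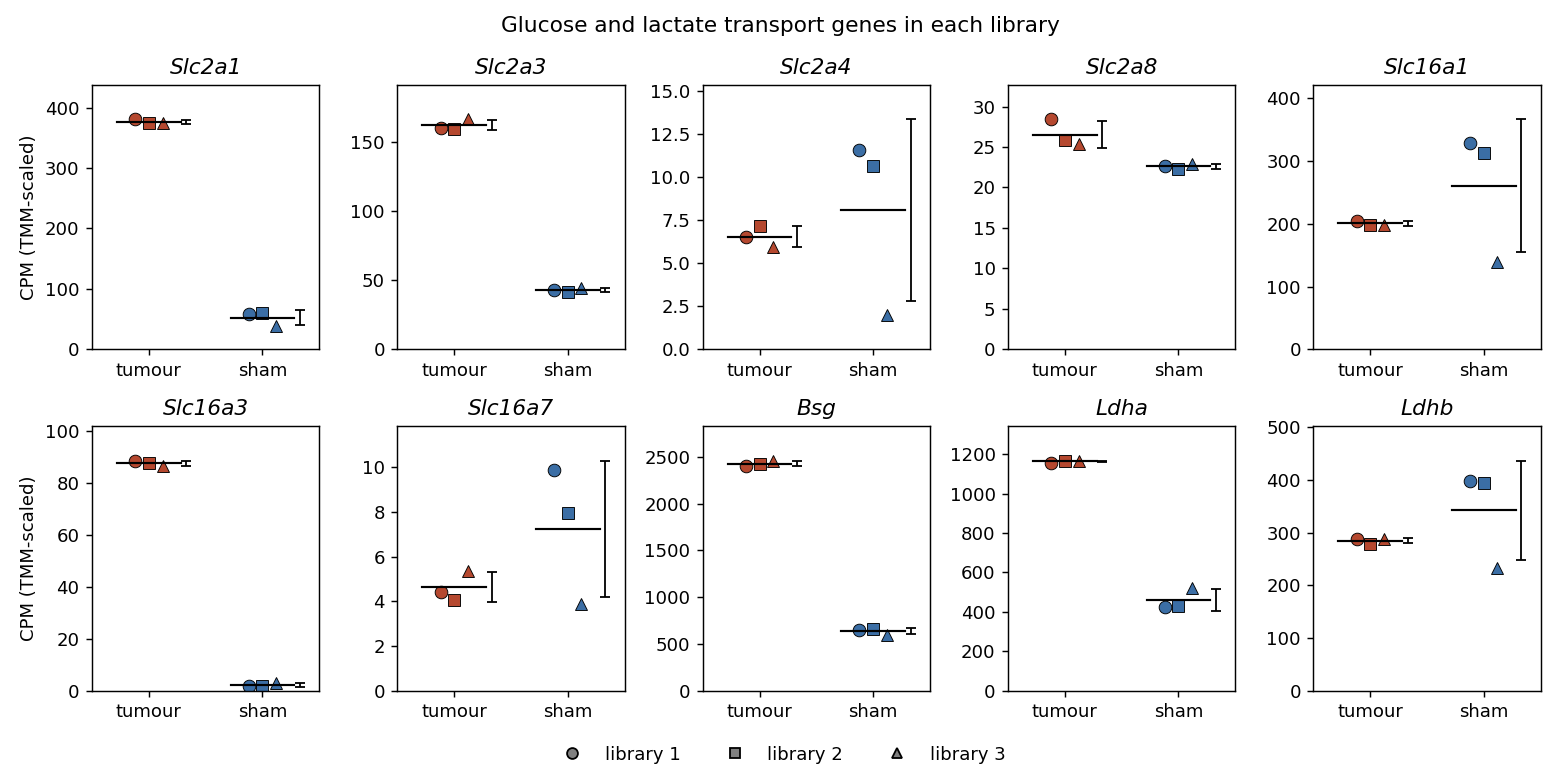
CPM (counts scaled to TMM library sizes) of the 10 genes, 1 panel per gene with its own axis from 0. Each point is a library, its shape gives the library number, and the line and bar show the mean and SD of 3 libraries. For Slc2a1, Slc2a3, Slc16a3, Bsg and Ldha all tumour points lie well above all sham points, whereas for Slc2a4, Slc16a1, Slc16a7 and Ldhb sham library 3 lies below the tumour points and sham 1 and 2 above them.

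The promoters of the members that rose and of those that did not are shown because 5 members rose together. RefSeq (GRCm38.p6) gave 7 promoter windows for 6 of the 10 members, each from 250 bases before to 50 after a gene start. The windows of Slc2a1, Slc16a3 and Ldha, which rose, and of Slc16a1 and Ldhb, which were not called, follow 5′ to 3′ on the strand of the gene. Capitals mark the HIF-1 core, ACGTG or GCGTG, on either strand, so that a capital CACGT or CACGC is the core on the other strand; overlapping matches are merged.
Slc2a1, chr4:119108495-119108794, plus strand: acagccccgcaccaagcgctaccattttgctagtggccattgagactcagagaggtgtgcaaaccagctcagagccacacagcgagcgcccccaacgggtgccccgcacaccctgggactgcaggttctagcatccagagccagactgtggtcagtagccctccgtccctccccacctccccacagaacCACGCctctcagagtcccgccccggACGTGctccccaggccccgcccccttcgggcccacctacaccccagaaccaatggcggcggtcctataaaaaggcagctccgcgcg
Slc16a3, chr11:120948817-120949116, plus strand: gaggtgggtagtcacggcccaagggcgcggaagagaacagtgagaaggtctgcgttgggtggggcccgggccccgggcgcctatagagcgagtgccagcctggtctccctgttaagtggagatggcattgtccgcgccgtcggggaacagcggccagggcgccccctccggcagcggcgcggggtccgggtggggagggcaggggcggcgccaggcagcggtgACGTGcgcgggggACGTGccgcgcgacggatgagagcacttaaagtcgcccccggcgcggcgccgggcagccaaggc
Ldha, chr7:46845554-46845853, plus strand: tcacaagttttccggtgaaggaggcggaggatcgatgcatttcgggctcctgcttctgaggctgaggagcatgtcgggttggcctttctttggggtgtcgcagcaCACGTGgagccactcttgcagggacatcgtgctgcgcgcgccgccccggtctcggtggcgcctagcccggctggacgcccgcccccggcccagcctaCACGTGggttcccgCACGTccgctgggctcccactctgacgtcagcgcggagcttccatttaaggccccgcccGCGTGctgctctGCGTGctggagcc
Slc16a1, chr3:104638414-104638713, plus strand: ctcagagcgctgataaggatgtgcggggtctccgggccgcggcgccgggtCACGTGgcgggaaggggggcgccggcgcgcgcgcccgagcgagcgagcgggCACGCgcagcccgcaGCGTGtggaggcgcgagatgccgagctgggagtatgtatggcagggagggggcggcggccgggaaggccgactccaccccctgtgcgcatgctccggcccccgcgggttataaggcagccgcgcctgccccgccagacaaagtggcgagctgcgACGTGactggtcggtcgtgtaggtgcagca
Ldhb, chr6:142507908-142508207, minus strand: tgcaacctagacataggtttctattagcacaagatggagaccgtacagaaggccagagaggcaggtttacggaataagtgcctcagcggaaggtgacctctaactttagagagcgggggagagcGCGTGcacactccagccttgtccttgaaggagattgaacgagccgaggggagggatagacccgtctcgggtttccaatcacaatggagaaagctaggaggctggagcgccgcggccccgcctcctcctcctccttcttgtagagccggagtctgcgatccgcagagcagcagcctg

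RefSeq lists a second Ldha window, chr7:46846832-46847131, which is not printed and held 0 ACGTG and 2 GCGTG matches. Promoters of Slc2a3 and Bsg, which rose, and of Slc2a4 and Slc16a7 were not analysed here. The Ldha window shown held 3 merged ACGTG matches and 2 GCGTG matches, that of Slc16a3 held 2 ACGTG matches, and that of Slc2a1 held 1 of each. The window of Slc16a1 held 2 of each, although that gene was not called. Those of Ldhb and Slc2a8 held 0 ACGTG matches and 1 GCGTG match. Among 32851 promoter windows of this length, 19.6% held ACGTG, 32.4% held GCGTG and 43.8% held at least 1 of them. Such matches are common and describe these letters only. The transcript with the largest mean part of the Slc16a3 signal in either group, Slc16a3-201, starts upstream of the window shown.

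Slc2a1 encodes GLUT1, the carrier of astrocytes and of the blood-brain barrier, and lies at 119108711 to 119137983 of chromosome 4 (mm10, as for all genes here). Its level, in counts scaled to TMM library sizes (CPM), was 380.4, 374 and 375 CPM in tumour libraries 1 to 3, against 58.9, 60.6 and 38.0 CPM in sham libraries 1 to 3. The groups did not overlap, and sham 3 was the lowest library. The log2 fold change was 2.84 (SE 0.19, edgeR adjusted p = 0.000549), and it was 2.65 without sham 3. Most of its signal was assigned to the transcript Slc2a1-201, which codes for 492 residues, at 81.8 ± 1.92% of the TPM (a level per transcript length) of the gene in tumour libraries and 79.2 ± 9.41% in sham libraries (SD, n = 3 each). A transcript annotated for nonsense-mediated decay held most of the rest, at 17.5 ± 1.82% in tumour and 19.7 ± 8.18% in sham libraries. The division between transcripts is an estimate by Salmon and was not tested.

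Slc2a3 encodes GLUT3, a high-affinity glucose carrier best known from neurons, and lies on chromosome 6 from 122727809 to 122801640. It had 161, 159.8 and 167 CPM in the tumour libraries, against 43.4, 41.9 and 44.3 CPM in the sham libraries. All 3 sham libraries lay close together and far below the tumour libraries, so sham 3 was not set apart for this gene. The log2 fold change was 1.91 (SE 0.058, edgeR adjusted p = 4.88e-05). This SE was the smallest of the 10 genes.

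The other glucose carriers were not called. Slc2a8, which encodes the intracellular carrier GLUT8 (chromosome 2, 32972990 to 32982083), had 28.4, 25.8 and 25.3 CPM in tumour and 22.6, 22.2 and 23.0 CPM in sham libraries. All tumour values lay above all sham values, as they did for 22.2% of all tested genes, but the log2 fold change of 0.23 (SE 0.076) did not pass the test (edgeR adjusted p = 0.0787). Slc2a4 encodes GLUT4, the insulin-regulated carrier of muscle and fat (chromosome 11, 69942539 to 69948188). It had 6.54, 7.15 and 5.96 CPM in tumour libraries, against 11.6, 10.7 and 2.00 CPM in sham libraries, which came from 151 to 174 and from 44 to 263 reads. Its log2 fold change was -0.30 (SE 0.57, edgeR adjusted p = 0.741), and its sham libraries lay on both sides of the tumour libraries.

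Per length, the 4 glucose carriers together came to 289.7, 276 and 278 TPM in the tumour libraries and to 74.6, 76.4 and 58.6 TPM in the sham libraries. Slc2a1 made up 65.7 ± 0.858% of that sum in tumour libraries and 36.3 ± 4.79% in sham libraries (SD, n = 3 each). The share of Slc2a3 was 25.0 ± 0.807% in tumour libraries and 27.9 ± 5.95% in sham libraries. Slc2a8 had 7.51 ± 0.429% of the sum in tumour and 26.5 ± 4.16% in sham libraries. In sham 3 the levels of Slc2a1, Slc2a3 and Slc2a8 ran close, at 18.3, 20.3 and 18.3 TPM. In sham 1 and 2 Slc2a1 was higher, at 27.5 and 31.1 TPM. Slc2a3 had 18.1 and 18.7 TPM there, and Slc2a8 17.7 and 18.7 TPM. In the tumour libraries these 3 genes were separated, at 185 ± 2.43, 70.2 ± 3.90 and 21.1 ± 1.57 TPM.

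Among the monocarboxylate carriers Slc16a3 changed most. It encodes MCT4, a carrier suited to lactate export and typical of glycolytic cells, and lies on chromosome 11 from 120948480 to 120960868. The tumour libraries held 88.6, 87.6 and 86.7 CPM of it (2139, 2132 and 2195 reads), and the sham libraries 1.80, 1.62 and 2.90 CPM (41, 39 and 64 reads). Sham 3 was the highest of the sham libraries yet far below every tumour library. The log2 fold change was 5.38 (SE 0.20, edgeR adjusted p = 7.76e-05). It was 5.67 without sham 3, and 5.75 with transcript length offsets. Of all tested genes 0.871% were called at least 4-fold higher, as were Slc16a3 and Slc2a1.

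Slc16a1 encodes MCT1, a carrier of lactate and ketone bodies in either direction, and lies on chromosome 3 from 104638668 to 104658462. It had 205, 198 and 198 CPM in tumour libraries, against 329, 313 and 138 CPM in sham libraries. The tumour values lay between sham 3 and the other sham libraries. Its log2 fold change was -0.38 (SE 0.31, edgeR adjusted p = 0.425). Slc16a7 encodes MCT2, the high-affinity carrier through which neurons take up lactate (chromosome 10, 125219270 to 125389465). It had 4.43, 4.07 and 5.37 CPM in tumour libraries and 9.90, 7.94 and 3.90 CPM in sham libraries, with sham 3 again lowest. Its log2 fold change was -0.65 (SE 0.34, edgeR adjusted p = 0.225).

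Summed per length, the 3 carriers came to 172, 164 and 160.2 TPM in tumour libraries and to 138, 133 and 65.4 TPM in sham libraries. Slc16a3 held 48.4, 48.1 and 44.6% of that sum in tumour libraries, against 1.25, 0.577 and 2.92% in sham libraries. In tumour libraries the level of Slc16a1, 84.8 ± 2.26 TPM, and that of Slc16a3, 77.8 ± 6.08 TPM (SD, n = 3 each), overlapped between libraries. In sham libraries Slc16a3 had the lowest mean level of the 10 genes, at 1.47 ± 0.614 TPM, although in sham 3 Slc2a4 was lower (1.62 TPM, against 1.91 TPM of Slc16a3), whereas Slc16a1 stood at 107 ± 40.9 TPM.

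Bsg encodes basigin (CD147), which carries MCT1 and MCT4 to the plasma membrane, and lies on chromosome 10 from 79704491 to 79711969. It was the most abundant of the 10 genes per length in either group. It had 2406, 2423 and 2461 CPM in tumour libraries, against 651, 663 and 600.1 CPM in sham libraries. The sham libraries, sham 3 included, lay close together. The log2 fold change was 1.93 (SE 0.11, edgeR adjusted p = 0.000336). Per length, the level of Bsg was 16.9, 17.7 and 18.7 times the sum of Slc16a1 and Slc16a3 in tumour libraries and 5.54, 6.12 and 11.5 times that sum in sham libraries.

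Salmon assigned nearly all Bsg signal to the transcript Bsg-205, which codes for 273 residues. Bsg-201, which codes for a longer form of 389 residues, had 80.6, 85.8 and 85.0 TPM in tumour libraries, against 7.72, 8.15 and 5.23 TPM in sham libraries. Its share of the gene was 2.79, 3.00 and 2.92% in tumour and 1.04, 1.04 and 0.741% in sham libraries. The longer form thus held a small part of the signal in every library, and its share was higher in each tumour library than in each sham library. Basigin with an additional immunoglobulin-like domain is known from photoreceptors. These shares were not tested.

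**Figure D2:**
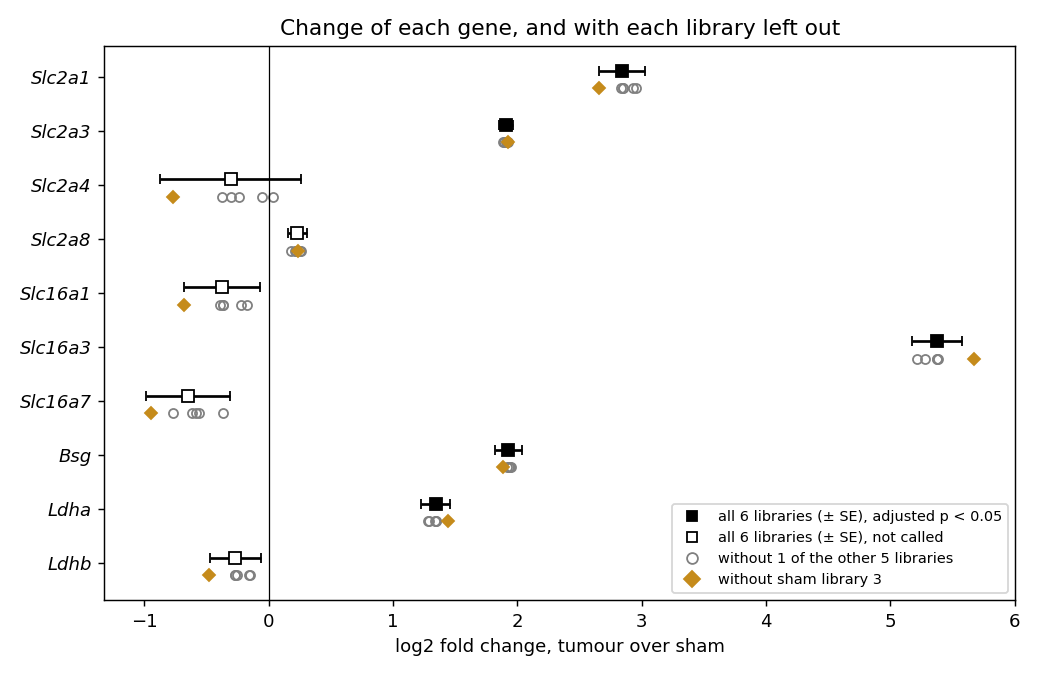
Log2 fold change, tumour over sham, of the 10 genes. Squares with bars give the estimate from all 6 libraries ± SE, filled where the adjusted p is below 0.05; open circles leave out 1 of the other 5 libraries and diamonds leave out sham library 3. The 5 called genes lie between 1.34 and 5.38 and move little, whereas without sham library 3 Slc2a4, Slc16a1, Slc16a7 and Ldhb move further below 0.

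Ldha encodes the LDHA subunit (chromosome 7, 46841475 to 46855627). It had 1158, 1167 and 1164 CPM in the tumour libraries and 424, 429 and 522 CPM in the sham libraries, where sham 3 was the highest. The log2 fold change was 1.34 (SE 0.12, edgeR adjusted p = 0.00135). Ldha has near-identical copies elsewhere in the genome, so its level is less certain; Ldha-ps and Ldha-ps2, the 2 copies with that name in the files, were listed at 0 reads in every library. Ldhb encodes the LDHB subunit (chromosome 6, 142490249 to 142507957). It had 287, 279 and 287 CPM in tumour libraries, against 398, 395 and 233 CPM in sham libraries. The tumour values again lay between sham 3 and the other sham libraries, and the log2 fold change was -0.27 (SE 0.21, edgeR adjusted p = 0.398).

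The balance of the dehydrogenase transcripts did not overlap between the groups. Per length, Ldha stood to Ldhb as 3.44, 3.76 and 3.61 to 1 in tumour libraries, and as 0.948, 0.962 and 2.04 to 1 in sham libraries. Sham 1 and 2 had about equal levels, and sham 3 lay between them and the tumour libraries. Ldha made up 78.3 ± 0.741% of the summed TPM of Ldha and Ldhb in tumour libraries and 54.9 ± 10.5% in sham libraries (SD, n = 3 each). The log2 ratio of Ldha to Ldhb and the shares of Ldha, Slc16a3 and Slc2a1 each differed in the same direction in every pair of a tumour and a sham library. For each of these 4 measures the two-sided exact permutation test gave p = 0.1 (0.1 also after adjustment over the 4), the smallest value that 3 against 3 libraries allow. The log2 ratio and the share of Ldha come from the same Ldha and Ldhb levels, so they are not separate results.

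**Figure D3:**
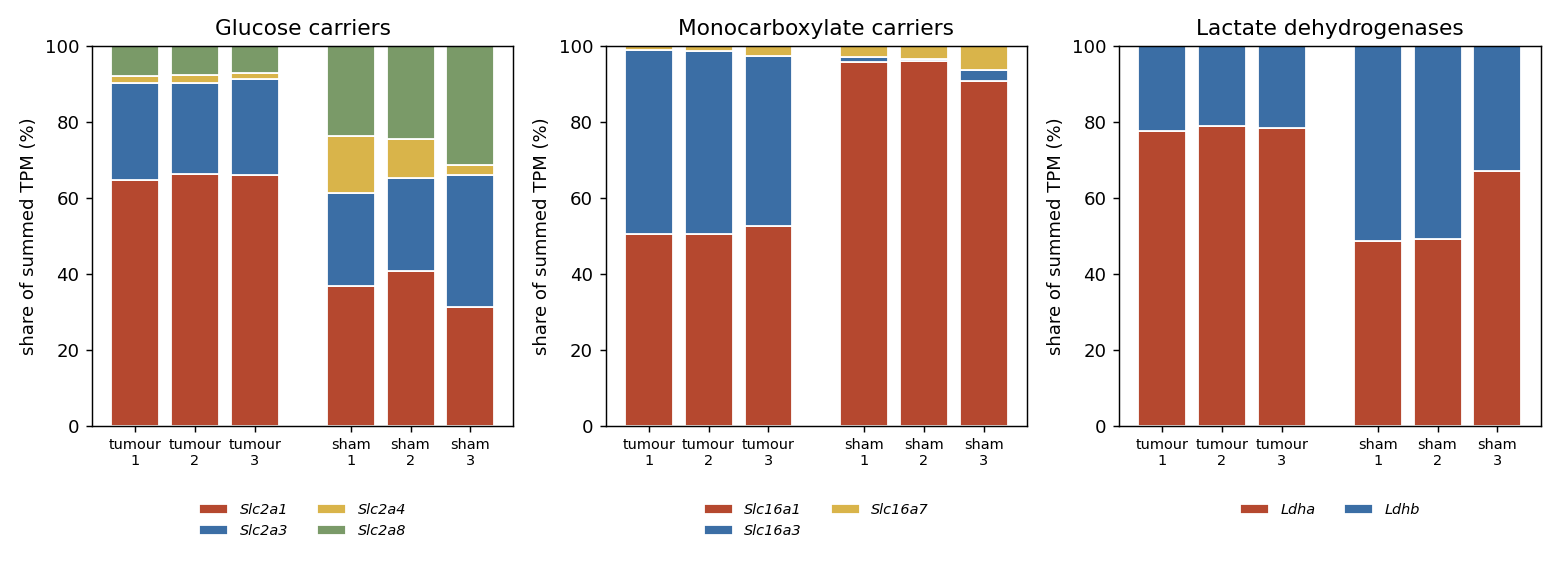
Share of each gene in the summed TPM of its kind, for the glucose carriers, the monocarboxylate carriers and the lactate dehydrogenases, in tumour libraries 1 to 3 and sham libraries 1 to 3. Slc16a3 fills 44.6 to 48.4% of the monocarboxylate carrier sum in the tumour libraries and at most 2.92% in the sham libraries; Slc2a1 and Ldha also take a larger part in the tumour libraries.

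For Slc2a4, Slc16a1, Slc16a7 and Ldhb the outcome of the test rested on sham library 3. The log2 difference of sham 3 from the mean of sham 1 and 2 was -2.48 for Slc2a4, -1.21 for Slc16a1, -1.18 for Slc16a7, -0.77 for Ldhb and -0.65 for Slc2a1. It was 0.76 for Slc16a3 and 0.29 for Ldha, and smaller for Slc2a3 (0.057), Slc2a8 (0.034) and Bsg (-0.13). Without sham 3, edgeR called 4 members lower, Slc16a7 (log2 fold change -0.95), Slc2a4 (-0.77), Slc16a1 (-0.68) and Ldhb (-0.48), and called Slc2a8 higher (0.24, against 0.23 with sham 3) beside the 5 genes above. That fit called 57.7% of 14618 genes, 29.1% higher and 28.6% lower, and its 2 sham libraries nearly coincided. Against sham 3 alone the log2 difference of the tumour mean was 1.71 for Slc2a4, 0.53 for Slc16a1, 0.24 for Slc16a7 and 0.29 for Ldhb, opposite to the differences from sham 1 and 2. For the 5 genes that rose, the tumour mean exceeded sham 3 and the mean of sham 1 and 2 alike, by 3.31 and 2.66 for Slc2a1, 4.92 and 5.68 for Slc16a3, 2.02 and 1.89 for Bsg, 1.87 and 1.93 for Slc2a3, and 1.16 and 1.45 for Ldha.

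A list of 35 other genes of glucose and monocarboxylate handling was read in the same way. Of its 24 tested genes 2 rose and 6 fell, where 10.5% and 10.4% of all tested genes did, and the median log2 fold change was -0.077, against -0.017 over all tested genes. Among those that fell were regulators of glucose uptake. Txnip, whose product promotes the removal of GLUT1 from the cell surface, had 479, 471 and 462 CPM in tumour libraries, against 757, 806 and 741 CPM in sham libraries, and its log2 fold change was -0.71 ± 0.088 (SE; edgeR adjusted p = 0.00397). Its paralogue Arrdc4 had 19.6, 18.0 and 19.0 CPM in tumour libraries and 53.8, 52.0 and 60.8 CPM in sham libraries, and its log2 fold change was -1.56 ± 0.085 (SE; edgeR adjusted p = 0.000306). For both genes the sham libraries lay together, sham 3 included.

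Mpc2, a subunit of the carrier that takes pyruvate into mitochondria, was at 40.8 ± 0.647 CPM in tumour libraries and 57.6 ± 4.91 CPM in sham libraries, a log2 difference of -0.50 ± 0.078 (SE; edgeR adjusted p = 0.00844). Its partner Mpc1 had a log2 fold change of -0.17 (adjusted p = 0.492). Slc16a4 (-1.27, SE 0.16), an orphan member of the monocarboxylate family, fell as well, to 3.73, 3.21 and 3.83 CPM in tumour libraries, against 8.75, 7.52 and 9.66 CPM in sham libraries. Slc16a9 (-0.70, SE 0.16) had 10.3, 10.2 and 11.4 CPM in tumour libraries, against 19.8, 18.5 and 13.3 CPM in sham libraries. The hexose carrier gene Slc2a6 (-2.35, SE 0.62) had 0.828, 0.576 and 0.711 CPM in tumour libraries, against 1.80, 1.95 and 7.08 CPM in sham libraries, where sham 3 stood far above the others. Slc37a4, the glucose-6-phosphate carrier of the endoplasmic reticulum (0.49, SE 0.10, at 20.7 to 23.1 CPM in tumour and 14.0 to 16.8 CPM in sham libraries), and Slc16a14, an orphan member (1.53, SE 0.39, at 1.01 ± 0.316 CPM in tumour and 0.348 ± 0.0355 CPM in sham libraries), rose. The calls of Txnip, Arrdc4 and Slc16a4 held whichever library was left out. That of Mpc2 was lost without any 1 of the tumour libraries (adjusted p = 0.0504 to 0.0538), and those of Slc37a4, Slc16a9, Slc2a6 and Slc16a14 were lost when sham 2 or any 1 tumour library was left out, and those of Slc16a9 and Slc16a14 also without sham 1. Slc2a6 moved to -1.41 without sham 3. Without sham 3 the list held 8 genes called higher and 13 called lower.

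Other genes of the basigin family missed the threshold. Emb, the alternative partner of monocarboxylate carriers, differed by 0.064 ± 0.066 on the log2 scale (SE; edgeR adjusted p = 0.526), and Nptn, a further member of the basigin family, by -0.083 ± 0.064 (adjusted p = 0.404). Slc2a5, the fructose carrier typical of microglia, reached 0.0416 CPM at most. The mitochondrial D-lactate dehydrogenase gene Ldhd (0.57, SE 0.16, edgeR adjusted p = 0.0514) missed the threshold by little. So did Slc16a11 (1.09, SE 0.32, edgeR adjusted p = 0.0556), with 47.9, 48.8 and 44.8 CPM in tumour libraries and 16.9, 14.8 and 35.0 CPM in sham libraries. Slc50a1 (0.25, SE 0.074, edgeR adjusted p = 0.060) and, in the other direction, Slc16a12 (-1.66, SE 0.54, edgeR adjusted p = 0.0728) came next.

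**Figure D4:**
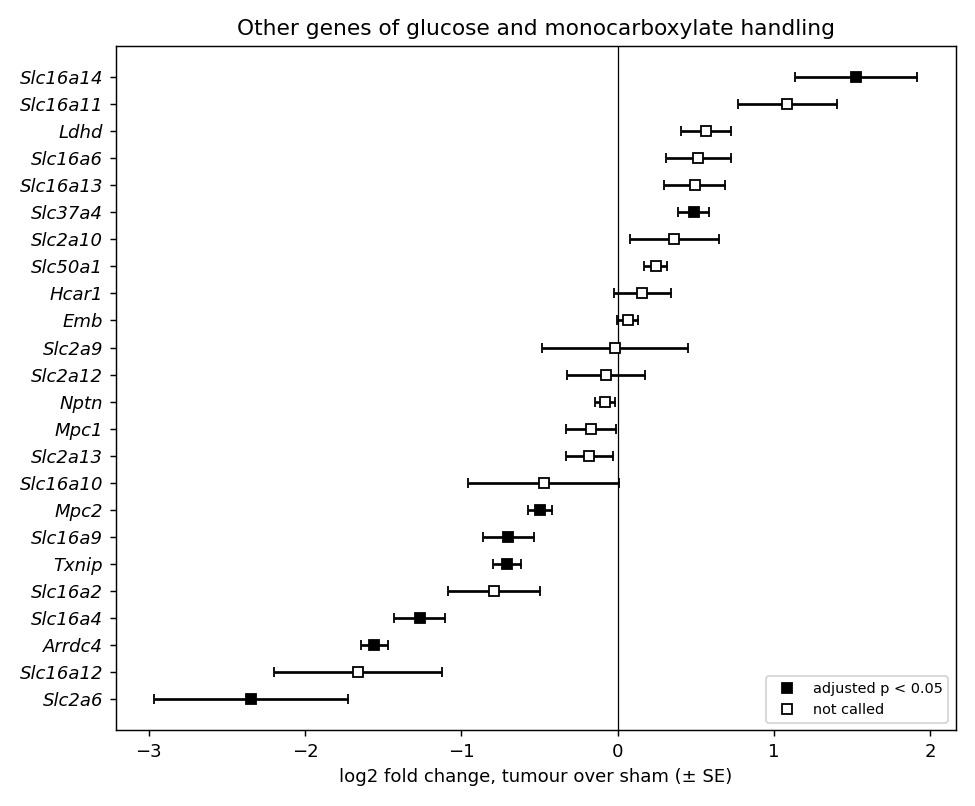
Log2 fold change, tumour over sham, ± SE of the 24 tested genes of the list of other glucose and monocarboxylate genes, ordered by size. Filled squares have an adjusted p below 0.05: 2 lie above 0 (Slc16a14 and Slc37a4) and 6 below, among them Txnip and Arrdc4.

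The genes whose profile over the 6 libraries was most like that of a member were sought among 11021 tested genes with a mean of at least 5 CPM. Likeness was the root mean square difference of mean-centred log2 CPM, so a small value means a similar course. For Slc2a1 they were Egln3 (0.047), Gbe1 (0.16) and Hk2 (0.22). Egln3, which encodes an oxygen-sensing prolyl hydroxylase, had 148, 148 and 145 CPM in tumour libraries and 23.0, 21.8 and 15.1 CPM in sham libraries, with sham 3 lowest as for Slc2a1. For Slc16a3 they were Car9 (0.31), Ak4 (0.54) and Ankrd37 (0.59), which are farther from it. Car9, the gene of a carbonic anhydrase at the cell surface, had 65.0, 63.2 and 68.3 CPM in tumour libraries and 1.58, 0.914 and 3.45 CPM in sham libraries. For Ldhb they were Idh2 (0.017), Aldh5a1 (0.022) and Ctso (0.022), each highest in sham 1 and 2 and lowest in sham 3.

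Slc2a1 is also a gene of brain endothelium and Slc2a3 one of neurons, so markers of other cells were read in the same libraries. The 10 astrocyte markers were all detected, and summed to 4723 to 4835 CPM in tumour libraries and to 6517, 6580.1 and 3269.6 CPM in sham libraries 1 to 3. Of them Aldh1l1 rose (0.48) and Gja1 fell (-0.94), with 529.5 to 553 CPM of Gja1 in tumour libraries, against 1213, 1202 and 707 CPM in sham libraries 1 to 3. The 10 endothelial markers summed to 701 to 709 CPM in tumour and 604 to 739 CPM in sham libraries. Most of it was Cdh5, at 573 to 577 CPM in tumour and 497 to 595 CPM in sham libraries. Cldn5 was at 0 in every library, and Pecam1 reached at most 0.499 CPM. Kdr, which was lower, was the 1 marker called of 7 tested. Flt1 went the other way without a call (log2 fold change 1.05, edgeR adjusted p = 0.205). It had 34.4, 34.7 and 37.6 CPM in tumour libraries, against 8.88, 8.94 and 33.9 CPM in sham libraries, so all tumour values lay above all sham values.

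The 10 neuron markers summed to 196 to 199 CPM in tumour libraries and to 150.1 to 236 CPM in sham libraries, mostly Stmn2 and Map2; Rbfox3 was at 0 in every library, Snap25 reached at most 0.352 CPM, and Gad1 rose while Tubb3 fell among 7 tested. Nefm had 26.5, 23.3 and 25.5 CPM in tumour libraries, against 2.46, 2.83 and 14.7 CPM in sham libraries, and Nefl had 7.25, 6.54 and 6.44 CPM in tumour libraries, against 0.616, 0.665 and 4.54 CPM in sham libraries. For both neurofilament genes all tumour values lay above all sham values, with log2 fold changes of 1.92 for Nefm and 1.80 for Nefl that missed the threshold (edgeR adjusted p = 0.0872 and 0.132). Syt1 went the other way, with 0.621, 2.01 and 0.553 CPM in tumour libraries, against 2.86, 3.99 and 2.99 CPM in sham libraries. Its log2 fold change of -1.62 also missed the threshold (edgeR adjusted p = 0.0719). The 12 SCLC markers summed to 35.0 to 38.1 CPM in tumour libraries and to 48.0 to 51.4 CPM in sham libraries, and edgeR called 0 of 7 tested, with 2 lower and 0 higher at an unadjusted p below 0.05. Epcam was at 0.237 to 0.331 CPM in tumour libraries and at 0 in sham libraries, and Chga at 0 in tumour libraries and at 0.0416 to 0.176 CPM in sham libraries. The part of other cells in the changes of the 10 genes was not tested beyond these values. Microglial markers summed to 211 to 219 CPM in tumour and 169 to 192 CPM in sham libraries with 1 of 5 tested called higher, while Cx3cr1 reached at most 0.290 CPM and Ptprc at most 0.0440 CPM. Pericyte markers summed to 443 to 454 CPM in tumour and 281 to 538 CPM in sham libraries with 0 of 5 called by edgeR (0 at an unadjusted p below 0.05), and oligodendrocyte markers to 476 to 489 CPM in tumour and 411 to 557 CPM in sham libraries with Pdgfra called higher. Without a call, all tumour values lay above all sham values for Mbp (log2 fold change 1.57, edgeR adjusted p = 0.0628). They lay below them for Olig1 (-1.36, edgeR adjusted p = 0.105), which had 51.8, 46.8 and 171 CPM in sham libraries 1 to 3. Olig1, Olig2 and Cspg4 were each highest in sham 3.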

How the data were processed

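Bulk RNA-seq of 6 astrocyte libraries was analysed, 3 tumour and 3 sham, grouped and numbered by their titles. A commercial provider extracted total RNA and made the libraries, per the labels' protocols; the sources used here give no kit or strandedness. The submitters' processing notes name mm10, Salmon 0.8.2 and DESeq2 1.28.1. The authors deposited estimated counts, TPM and lengths per transcript, per the file headers. Salmon divides reads among similar transcripts.

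GENCODE M21 (GRCm38, which is mm10) gave genes for 112841 of 113116 transcripts by unversioned identifier; 275 were left out. Estimated counts and TPM were summed per gene and the counts rounded. The test was edgeR 4.0.16 (R 4.3.3) with TMM scaling, filterByExpr (minimum count 10, minimum total 15) and group as the only term, fitted to all genes. The SE was taken as the size of the log2 fold change over the root of the F statistic. Levels between genes were compared in TPM. Of the other settings 14 were planned, among them DESeq2 1.42.0, limma-voom (limma 3.58.1), each library left out and near libraries summed; further ones were added after the data were seen. Deviations of libraries that share a replicate number showed no sign of pairing (correlations -0.019 to 0.0079, against -0.0123 to 0.0138 for other numbers). Because the tumour libraries nearly coincide, this check cannot exclude pairing.

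Members, pathway list and marker lists were chosen with earlier results of these data known. All members and every called pathway gene are named, with the 3 genes of smallest distance from Slc2a1, Slc16a3 and Ldhb, leaving out predicted gene models. Other pathway genes and single markers were named after their values were seen. Single values of some marker genes are not reported here.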

Additional observations from a re-analysis of the deposited data

How the results depend on the processing

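Slc16a3, Slc2a1, Slc2a3, Bsg and Ldha stayed past the threshold under 13 of the 14 planned settings; the exception was the fit to summed near libraries, in which edgeR called 0 members (5 at an unadjusted p below 0.05) and 0 genes higher or lower. In the sums, settings added after the data were seen, limma-voom also called 0 members and 0 genes, and DESeq2 called 78 genes higher and 10 lower, with 4 members higher; Ldha was not called there (adjusted p = 0.132). The number of genes called moved with 1 library left out, from 536 to 4250 higher and from 355 to 4179 lower, and so did the members, 5 to 6 higher and 0 to 4 lower, where the highest counts all came from leaving out sham 3. Among the list of other genes of glucose and monocarboxylate handling, 0 to 8 were higher and 3 to 13 lower with 1 library left out. Of that list 4 genes were higher with upper quartile scaling and 4 with DESeq2, 0 with transcript length offsets, and 0 and 0 in the sums by edgeR and by limma-voom; in the sums by DESeq2 0 were higher and 1 lower. With transcript length offsets 968 genes were lower. The fit with the replicate number as a block called 829 genes higher and 607 lower and 0 of that list higher, and 5 members were called higher in it as in the fit without it. The sign of Slc2a4 turned under limma-voom (log2 fold change 0.027), without sham 1 (0.038, against -0.77 without sham 3) and in the sums by limma-voom (0.19), and that of Slc16a1 in the sums by limma-voom (0.038); neither gene was called where its sign turned. Without 1 library the differences of shares kept their direction, at 20.2 to 29.4 percentage points for Ldha, 44.7 to 46.6 for Slc16a3 and 26.9 to 31.6 for Slc2a1, as did the log2 ratio of Ldha to Ldhb (1.36 to 1.91). With reads divided by the mean effective length of the gene in place of TPM, the difference for Slc16a3 was 41.2 percentage points. Those for Ldha and Slc2a1 then stayed within the ranges given. The cause of these shifts was not tested. Depth limits little here except for Slc2a4, Slc16a7 and Slc16a3 in sham libraries, which rest on 39 to 263 reads a library.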
